A study of Mus musculus with 10 samples.

Results

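Gas5, Snhg1, Snhg3, Snhg6, Snhg8, Snhg11, Snhg12 and Snhg15 are host genes of small nucleolar RNAs (snoRNAs). They were taken by name from the table of RNA recovered with the RNA-binding protein MEX3A in mouse neural stem cells, and all 8 were found among its 15899 genes. The rule used their names and no measured value. In the annotation (GENCODE M21, GRCm38) 5 are processed transcripts, 2 are lincRNAs and Snhg11 is listed as protein coding.

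The cells were neurosphere cultures from the adult subependymal zone of the brain, from mice 10 weeks of age. The Mex3aFLAG/FLAG cultures (FLAG) carried a FLAG tag knocked in at the end of the endogenous Mex3a gene, so the tagged protein came from its own promoter, and the Mex3a+/+ cultures (WT) of the same background had no tag and gave the background of the anti-FLAG beads. RNA immunoprecipitation with sequencing (RIP-seq) was done after formaldehyde crosslinking in 2 FLAG and 2 WT libraries and without it, in native conditions, in 3 FLAG and 3 WT libraries. The labels do not say whether replicates were separate animals, so the p-values measure the spread between these libraries. Input RNA was not analysed here, and in bulk cultures fewer cells of a type and less RNA per cell cannot be told apart.

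A snoRNA host gene is transcribed by RNA polymerase II, and its snoRNAs are cut out of the introns after splicing. The snoRNAs (guests) work in the nucleolus: C/D box snoRNAs guide 2′-O-methylation of ribosomal RNA and H/ACA box snoRNAs guide pseudouridylation. The spliced exons of hosts such as Gas5 and Snhg1 hold little or no conserved reading frame, belong to the class of messages with a 5′ terminal oligopyrimidine tract, and are broken down by nonsense-mediated decay when they are translated. Gas5 is known for accumulating in growth-arrested cells and Snhg1 as the U22 host gene.

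The deposited values were log2 normalized values with nearly the same distribution in every library, and no read totals were given, so depth is unknown. FLAG native replicates 1 and 3 stood apart, with 329 and 178 genes tied at the lowest value against 1 to 3 genes in the other 8 libraries. Of 10 listed markers of neural stem cells 9 had a value, and Egfr, Slc1a3, Nes, Vim and Fabp7 among them had mean values above those of at least 96.2% of genes, while Sox2 lay above 68.0%. Xist was high in all 5 FLAG libraries (8.56 to 10.86 on the log2 scale) and between −0.71 and 10.71 in the WT libraries. Eif2s3y on the Y chromosome was at most −0.12 in FLAG. In WT it was 4.01 to 4.23 in native libraries, −4.66 in 1 crosslinked library and 4.95 in the other. Genotype and sex of the cultures therefore cannot be told apart fully. The summed log2 level of 4 of 6 listed neuroblast and neuron markers was 9.07 to 9.37 in FLAG and 9.53 to 9.72 in WT libraries, and its part in the results was not tested. Mex3a itself separated the genotypes in both protocols, with FLAG values of 3.92 and 4.16 against WT values of 2.75 and 3.03 when crosslinked and 5.95, 4.03 and 6.10 against 3.33, 3.52 and 2.89 when native. Over all libraries this difference was 1.73 ± 0.37 (SE) and did not pass the threshold (limma, adjusted p = 0.0789).

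The values of these 8 genes did not measure spliced RNA alone, so they are described as host genes and not as spliced transcripts. Each gene appeared to have been counted over its whole span, introns included, and on both strands. Of 103 small RNA genes that lie inside a coding gene without touching its exons, 16 of them on the opposite strand, all 103 had a value no higher than that of the surrounding gene in all 10 libraries. Snhg3 shows it most plainly. It shares 5592 nt with Rcc1 on the same strand and 1611 nt with Gm17300 on the opposite strand, and its value differed from theirs by no more than 0.087 and 0.042 in any library, although no Rcc1 exon touches its snoRNAs. Gas5 shares 428 nt with Zbtb37 and Snhg6 shares 127 nt with Mcmdc2, both on the opposite strand. The 8 spans hold 28 snoRNA or snoRNA-like genes, all within introns of the transcript with the most exons, and 13 of the 28 have values of their own.

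Guests that carried much of the signal of their hosts, and the 1 guest of Gas5 that was called, are shown with their box elements in capitals, the ACA box near the 3′ end of H/ACA snoRNAs and the C box (TGATGA) and D box (CTGA) of C/D snoRNAs. Sequences and positions are of GRCm38, 5′ to 3′ on the strand of the gene. Snora73b (chr4:132352322-132352526, minus strand) and Snora73a (chr4:132352775-132352979, minus strand), also called U17, lie in introns of Snhg3 (chr4:132348014-132353686). U17 is an H/ACA snoRNA needed for ribosomal RNA cleavage.
Snora73a: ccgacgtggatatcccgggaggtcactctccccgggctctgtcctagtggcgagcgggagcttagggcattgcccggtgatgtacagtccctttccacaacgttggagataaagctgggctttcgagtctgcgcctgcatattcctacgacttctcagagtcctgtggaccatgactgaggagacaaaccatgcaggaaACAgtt
Snora73b: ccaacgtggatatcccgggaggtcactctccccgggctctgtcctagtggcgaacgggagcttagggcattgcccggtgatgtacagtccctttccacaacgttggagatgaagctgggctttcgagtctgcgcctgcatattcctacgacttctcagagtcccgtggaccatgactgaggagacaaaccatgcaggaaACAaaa
The 2 copies were 96.6% identical over 205 nt, with 198 identical positions, yet shared no window of 75 nt, so a full-length read of that size without mismatches belongs to 1 copy. Snora9 (chr11:6528033-6528165, minus strand) lies in Snhg15 (chr11:6525591-6528760) and Snora24 (chr3:123507937-123508066, minus strand) in Snhg8 (chr3:123507552-123508404), both H/ACA.
Snora9: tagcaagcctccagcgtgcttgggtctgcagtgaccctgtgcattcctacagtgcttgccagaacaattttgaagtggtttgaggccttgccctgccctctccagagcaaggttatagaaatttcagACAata
Snora24: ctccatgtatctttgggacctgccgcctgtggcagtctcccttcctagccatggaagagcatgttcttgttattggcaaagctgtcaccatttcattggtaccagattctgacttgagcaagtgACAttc
Snora44 (chr4:132309941-132310069, plus strand) is the most abundant measured guest of Snhg12, of the H/ACA class, and no ACA box was found near its annotated 3′ end.
Snora44: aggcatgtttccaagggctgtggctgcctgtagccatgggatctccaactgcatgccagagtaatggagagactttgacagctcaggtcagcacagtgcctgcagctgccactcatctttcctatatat
Snord22 (chr19:8725866-8725991, plus strand) is the U22 guest of Snhg1 (chr19:8723475-8726443) and is known for its role in 18S ribosomal RNA processing; no exact C box was found in it. Gm22357 (chr1:161036057-161036139, plus strand), annotated in RefSeq as SNORD24, lies in Gas5 (chr1:161034422-161038539) and was called between protocols.
Snord22: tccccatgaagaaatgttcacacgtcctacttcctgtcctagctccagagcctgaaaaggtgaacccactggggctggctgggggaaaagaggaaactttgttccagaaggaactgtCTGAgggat
Gm22357: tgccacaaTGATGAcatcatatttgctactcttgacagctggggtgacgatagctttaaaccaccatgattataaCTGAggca

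Per kb of gene span, Snhg3 had the highest mean value (5.99 ± 1.51 on the log2 scale, SD over 10 libraries), followed by Snhg1 (5.09 ± 1.16), Snhg8 (3.93 ± 1.05), Snhg15 (3.60 ± 1.93), Snhg12 (3.05 ± 1.18), Gas5 (2.67 ± 0.48), Snhg6 (0.85 ± 0.74) and Snhg11 (−2.46 ± 0.52). The order held in all 10 libraries only between Snhg1 and Snhg8, between Gas5 and Snhg6 and between Snhg6 and Snhg11. Snhg3 was above Snhg1 in 6 of 10 libraries, Snhg8 above Snhg15 in 5, Snhg15 above Snhg12 in 6 and Snhg12 above Gas5 in 6, so these neighbours did not differ beyond their spread. Over the 10 libraries Snhg3 varied with Snhg15 (Pearson r = 0.95) and Snhg1 with Snhg8 (r = 0.95), whereas Gas5 and Snhg15 gave r = −0.31. These correlations describe libraries that share their normalization and 2 protocols.

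**Figure D1:**
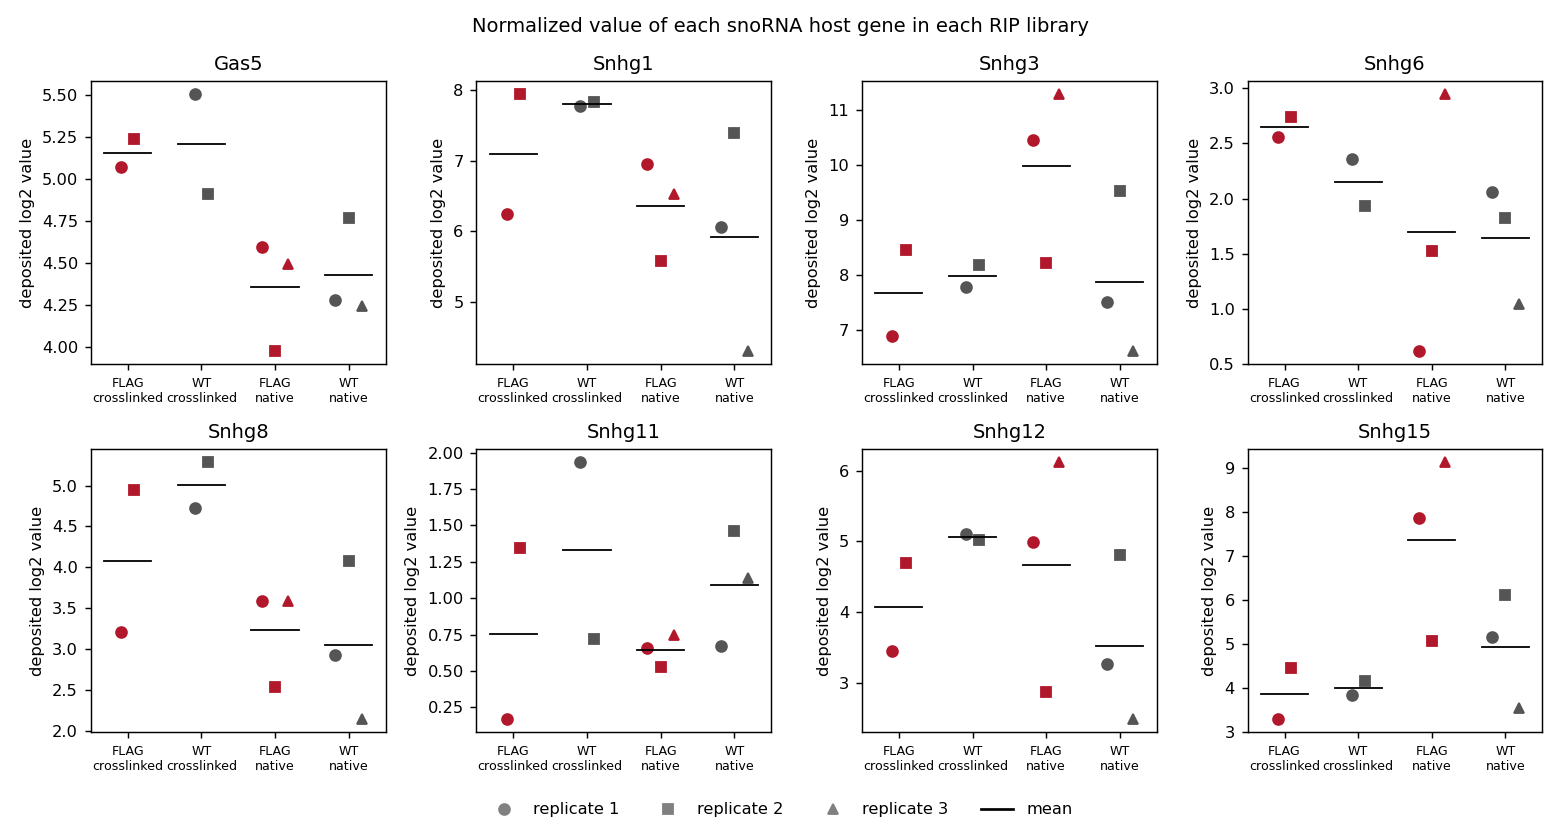
Deposited log2 value (vertical axis, own scale per panel) of each host gene in FLAG (red) and WT (grey) libraries of both protocols, with a mark per replicate and a line at the group mean. Gas5 is the gene whose crosslinked libraries (4.91 to 5.51) all lie above its native libraries (3.98 to 4.77), and Snhg3 and Snhg15 are highest in FLAG native replicates 1 and 3.

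None of the 8 genes was called higher or lower in FLAG than in WT under either protocol or over all libraries. A gene was called at an adjusted p under 0.05 (limma, Benjamini-Hochberg over all 15899 genes) with a log2 difference beyond 0.58. The share called among all genes in either direction was 0% when crosslinked, 0.107% when native and 0.497% over all libraries. When crosslinked, 0 of the 8 had an unadjusted p under 0.05, against 442 genes higher and 157 lower past the same difference in the whole table. When native, Snhg3 and Snhg15 did, both higher in FLAG, beside 7.77% of all genes. None of the 8 had every native FLAG library above every WT library, against 8.62% of all genes. The median difference of the 8 was −0.44 when crosslinked (1 positive) and 0.31 when native (6 positive), against medians of −0.02 and −0.04 over all genes.

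Snhg3 had log2 values of 6.89 and 8.46 in FLAG and 7.78 and 8.18 in WT when crosslinked. When native its values were 10.46, 8.22 and 11.30 in FLAG and 7.51, 9.53 and 6.61 in WT. FLAG native replicates 1 and 3 were the highest of all 10 libraries, and replicate 2 lay below WT replicate 2, so the groups overlapped. The native difference was 2.11 ± 0.86 (SE, limma, adjusted p = 0.281) and the crosslinked difference −0.30 ± 0.57 (limma, adjusted p = 0.929).

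Snhg15 hosts the single guest Snora9. Its values were 3.29 and 4.45 in FLAG and 3.83 and 4.17 in WT when crosslinked. When native they were 7.87, 5.08 and 9.15 in FLAG and 5.17, 6.11 and 3.54 in WT. The pattern over libraries was that of Snhg3, with the same 2 FLAG libraries on top and FLAG replicate 2 among the WT values, and the native difference was 2.43 ± 0.97 (SE, limma, adjusted p = 0.280). Without FLAG native replicates 1 and 3, the libraries with ties at their lowest value, the native difference was 0.14 for Snhg15, 0.34 for Snhg3 and −0.64 ± 0.82 (SE) for Snhg12 (1.15 with all libraries), with FLAG native replicate 2 as the only native FLAG library left and assumed to vary like the others. Without FLAG native replicate 2 instead, Snhg3 (3.00), Snhg15 (3.57) and Snhg12 (2.04) were called higher, with adjusted p (limma) of 0.0258, 0.014 and 0.0499, and 9.12% of all genes were called higher in that setting.

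Snhg12 (chr4:132308678-132311024), host of Snora16a, Snora44, Snora61 and Snord99, had values of 3.45 and 4.69 in FLAG and 5.10 and 5.02 in WT when crosslinked. When native they were 4.99, 2.87 and 6.12 in FLAG and 3.26, 4.80 and 2.48 in WT. Both crosslinked FLAG libraries lay below both WT libraries, as for 19.9% of all genes, and the native groups overlapped. The differences were −0.99 ± 0.45 when crosslinked (SE, limma, adjusted p = 0.704) and 1.15 ± 0.81 when native (adjusted p = 0.449). For Snhg3, Snhg12 and Snhg15 the crosslinked and native differences differed by −2.41, −2.14 and −2.56 (crosslinked minus native), with adjusted p (limma, interaction term) of 0.97 for each. Without FLAG native replicates 1 and 3 these values were −0.64, −0.35 and −0.27. Cultures were also used as a block, a culture being a genotype and replicate number shared by both protocols. The sex gene Eif2s3y contradicts this for at least 1 WT number. With that block the values were −1.12, −0.89 and −0.97 (limma, adjusted p = 1.0 for each). With guest values subtracted that of Snhg12 was 0.31 ± 1.16 and that of Snhg15 −0.85 ± 0.45 (SE, limma, adjusted p = 0.977 and 0.97).

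Snhg1 and Snhg8 varied together over the libraries, and FLAG was on neither side of WT. Snhg1 had values of 6.25 and 7.95 in FLAG and 7.77 and 7.84 in WT when crosslinked, and of 6.96, 5.59 and 6.53 in FLAG and 6.06, 7.39 and 4.30 in WT when native. Snhg8 had values of 3.21 and 4.95 in FLAG and 4.72 and 5.29 in WT when crosslinked, and of 3.59, 2.54 and 3.60 in FLAG and 2.93, 4.08 and 2.15 in WT when native. FLAG crosslinked replicate 1 and WT native replicate 3 were low for both genes, and FLAG and WT overlapped in both protocols. The differences over all libraries were −0.02 ± 0.55 for Snhg1 and −0.26 ± 0.45 for Snhg8 (SE, limma, adjusted p = 0.983 and 0.733).

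Gas5 varied least over the 10 libraries (SD 0.48 on the log2 scale). It had values of 5.07 and 5.24 in FLAG and 5.51 and 4.91 in WT when crosslinked, and of 4.60, 3.98 and 4.50 in FLAG and 4.28, 4.77 and 4.25 in WT when native. The groups overlapped under both protocols, and the difference was −0.05 ± 0.23 when crosslinked and −0.08 ± 0.25 when native (SE, limma, adjusted p = 0.975 and 0.878). The SD of Gas5 was 0.31 within native groups, below the median of 0.38 over all genes, and 0.31 within crosslinked groups, above the median of 0.15 and the SDs of 78.2% of genes. In native groups the SDs of Snhg15, Snhg3, Snhg12 and Snhg1 (1.74, 1.54, 1.43 and 1.20) exceeded the SDs of at least 97.6% of genes.

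Snhg6 (chr1:9941959-9944118), host of Snord87, had values of 2.56 and 2.74 in FLAG and 2.36 and 1.94 in WT when crosslinked, and of 0.62, 1.52 and 2.95 in FLAG and 2.06, 1.83 and 1.05 in WT when native. It was the only host with both crosslinked FLAG libraries above both WT libraries, as 19.1% of all genes were, with a difference of 0.51 ± 0.19 (SE, limma, adjusted p = 0.654), and in native conditions FLAG spread past WT on both sides. Snhg11 (chr2:158375638-158386145), a brain-expressed host of 2 SNORA71 copies and the least abundant per kb, had values of 0.17 and 1.34 in FLAG and 1.94 and 0.72 in WT when crosslinked, and of 0.66, 0.53 and 0.74 in FLAG and 0.67, 1.46 and 1.14 in WT when native. Its FLAG libraries were on the low side without separating from WT, and the difference over all libraries was −0.50 ± 0.31 (SE, limma, adjusted p = 0.344).

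**Figure D2:**
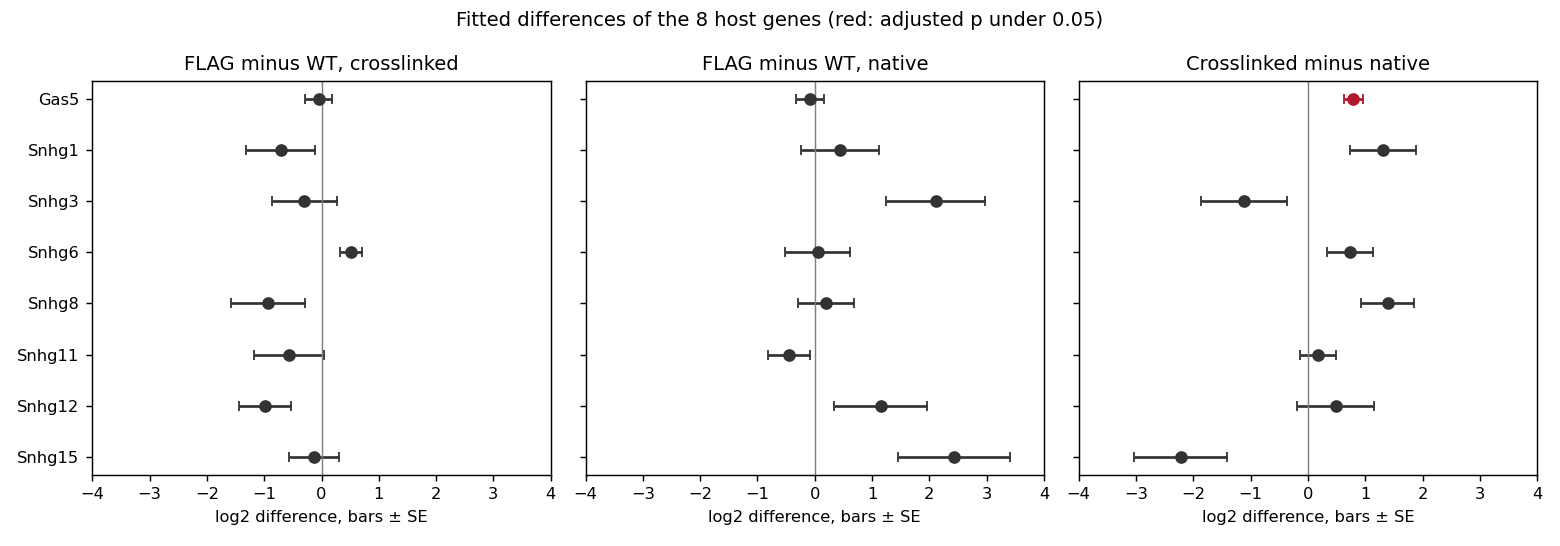
Fitted log2 difference (horizontal axis, points with bars of 1 SE) of each host gene between FLAG and WT in crosslinked and in native libraries and between crosslinked and native libraries over both genotypes. Only Gas5 in the comparison of protocols (0.79 ± 0.17) passes the threshold and is drawn in red.

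Crosslinking, compared over both genotypes with genotype in the fit, was the setting in which a host was called. Gas5 was higher in crosslinked than in native libraries by 0.79 ± 0.17 (SE, limma, adjusted p = 0.0299), and all 4 crosslinked libraries lay above all 6 native ones. Of all genes, 1.17% were called higher in this comparison and 5.56% had every crosslinked library above every native one. The Gas5 call was lost, at adjusted p (limma) of 0.0584 to 0.123, when FLAG crosslinked replicate 1 or 2, WT crosslinked replicate 1 or WT native replicate 1 or 3 was left out, with differences of 0.68 to 0.82. It was also lost with the cultures as a block, in which native replicates 3 carry no weight (0.78 ± 0.21, SE, limma, adjusted p = 0.116), and with the replicate number alone as a block (0.78, adjusted p = 0.123), and it held with the cultures as a random block (0.78 ± 0.17, SE, limma, adjusted p = 0.0167). The 186 genes called higher became 70 with the culture block (0.44% of all genes) and 365 with the random block (2.3%).

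Snhg8 (1.39 ± 0.46, SE) and Snhg1 (1.31 ± 0.57) had positive differences with an unadjusted p under 0.05 that did not pass after adjustment (limma, adjusted p = 0.114 and 0.222), as were 4.58% of all genes before adjustment. Snhg15 had a negative difference (−2.22 ± 0.81, SE, limma, adjusted p = 0.154), as did 7.06% of all genes before adjustment. Without FLAG native replicates 1 and 3 its difference was −1.03 ± 0.53 (SE, limma, adjusted p = 0.26), that of Snhg3 moved from −1.11 to −0.13 and that of Snhg12 from 0.48 to 1.42 ± 0.50 (SE, limma, adjusted p = 0.131). Snhg3 (−1.11), Snhg6 (0.73), Snhg12 (0.48) and Snhg11 (0.17) had adjusted p (limma) between 0.338 and 0.803.

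The guest snoRNAs followed their hosts, whose values contain them. Snord22 and Snhg1 (r = 0.999 over 10 libraries), Snora73a and Snhg3 (0.998), Snora24 and Snhg8 (0.996) Snora9 and Snhg15 (0.989) and Snora44 and Snhg12 (0.986) had nearly the same profile. The weakest were Gm25894 (SNORD26) and Gm24452 (SNORD27), minor guests of Snhg1 with r of 0.624 and 0.677. On the linear scale the measured guests summed to a median of 98.9% of the value of Snhg3, 93.7% of Snhg1, 86.2% of Snhg15, 85.9% of Snhg8 and 84.0% of Snhg12 over the libraries, and to 21.6% of Gas5. Shares above 100%, up to 108.8% for Snhg3, can occur because normalized values of different genes do not add up exactly. No guest of Snhg6 or Snhg11 had a value.

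**Figure D3:**
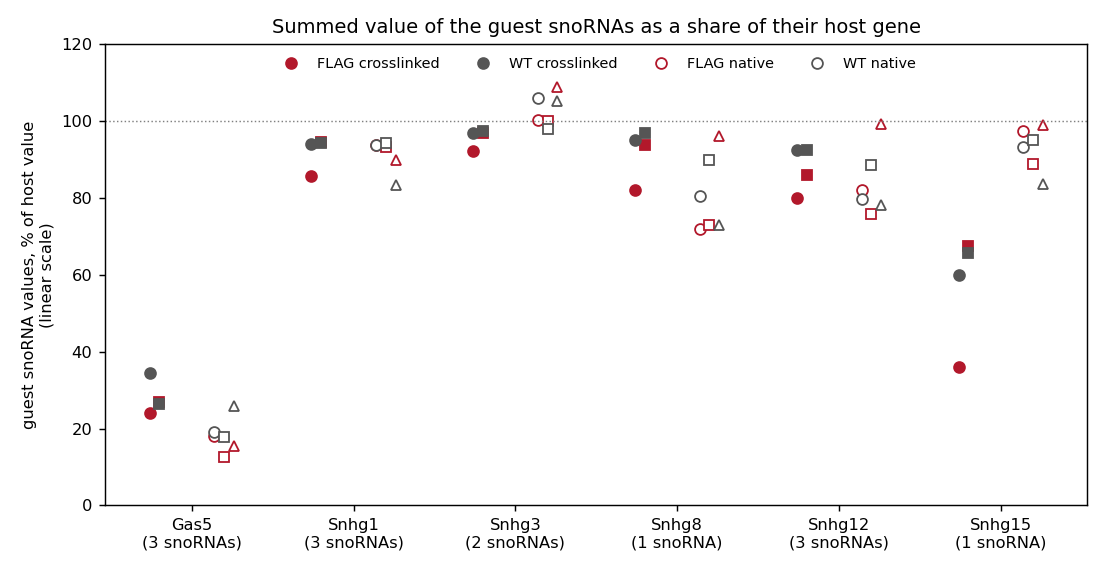
Summed linear value of the measured guest snoRNAs as a percentage of the value of their host (vertical axis) in each library, for the 6 hosts with a measured guest (filled marks crosslinked, open marks native, circle, square and triangle for replicates 1, 2 and 3). Gas5 lies between 12.6% and 34.5%, and Snora9 makes up 35.9% to 67.4% of Snhg15 in crosslinked libraries and 83.5% to 98.9% in native ones.

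No guest was called between FLAG and WT. When native, 11 of the 13 guests had a positive difference, as had 47.4% of all genes. When crosslinked 11 of the 13 had a negative one (median −0.49), with Gm23212 (0.06) and Snord78 (0.05) as the exceptions. Of all genes 46.3% had a positive difference when crosslinked. The largest native differences were those of Snora9 (2.50 ± 1.02), Snora73a (2.14 ± 0.88) and Snora73b (2.08 ± 0.86, SE, limma, adjusted p = 0.281 for each). For all of them FLAG native replicate 2 lay within the WT native values. Snora9 was 4.91 in that library and 7.83 and 9.13 in FLAG native replicates 1 and 3. Gm22357 (SNORD24) in Gas5 had negative differences under both protocols, of −1.20 ± 0.39 when native and −0.58 ± 0.46 when crosslinked (SE, limma, adjusted p = 0.252 and 0.808). Between protocols, Gm22357 was higher in crosslinked libraries by 1.58 ± 0.29 (SE, limma, adjusted p = 0.0142), with values of 1.84 to 3.32 when crosslinked and 0.08 to 2.12 when native. The ranges overlapped through WT native replicate 3, and the call was lost when FLAG crosslinked replicate 2 or WT crosslinked replicate 1 was left out, and with a pseudocount of 8, where the difference was 0.46 (limma, adjusted p = 0.0303). The other measured C/D guests of Gas5 and Snhg1 had differences between 1.32 and 1.81 in the same direction, and the H/ACA guests ranged from −2.95 ± 0.91 for Snora9 to 2.69 ± 0.84 for Snora16a, none of which passed after adjustment, although Snora9 did with cultures as a random block (−2.93 ± 0.81, SE, limma, adjusted p = 0.0485).

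The values of the guests were therefore subtracted from those of their hosts on the linear scale, an alternative added after the values were seen. The result is defined for Gas5, Snhg1, Snhg8, Snhg12 and Snhg15. It still holds intron reads and unmeasured guests and, where guests make up nearly the whole value, it is a small difference of 2 large numbers. For Snhg3 it was above 0 in only 6 of 10 libraries and is not given. The large native differences between FLAG and WT were smaller in what was left. Snhg12 changed from 1.15 to −0.18 ± 0.80 (SE) and Snhg15 from 2.43 to 1.02 ± 0.35 (SE, limma, adjusted p = 0.911 and 0.258). The sign for Snhg12 was not stable. Its difference was 0.68 without FLAG native replicate 3, in which guests made up 99.2% of Snhg12, and 0.17 without WT native replicate 2. Without any other native library it was between −1.04 and −0.19. For Snhg15 the difference was 0.81 to 1.26 with a native library left out.

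The remainder of Snhg15 was 2.53, 1.91 and 2.65 in FLAG and 1.28, 1.82 and 0.94 in WT when native, and 2.65 and 2.83 in FLAG and 2.51 and 2.63 in WT when crosslinked. In FLAG native replicates 1 and 3 Snora9 made up 97.5% and 98.9% of Snhg15, so the remainder there was a small part of the value, and in replicate 3 the guests of Snhg3 summed to 108.8% of their host by the same calculation. The FLAG and WT remainders of Snhg15 are therefore not ordered here, and the difference over all libraries, 0.68 ± 0.24 (SE), did not pass the threshold (limma, adjusted p = 0.171). Its protocol difference turned from −2.22 to 0.80 ± 0.25 (SE, limma, adjusted p = 0.0976). For Snhg8 the protocol difference changed from 1.39 to 0.09 ± 0.45 (SE, limma, adjusted p = 0.936). It ranged from −0.27 without FLAG native replicate 3 to 0.36 without FLAG native replicate 1. For Snhg1 the protocol difference changed from 1.31 to 1.15 ± 0.35 (SE, limma, adjusted p = 0.0923). The Gas5 remainder, with only 3 of its 9 guests subtracted, differed between protocols by 0.60 ± 0.17 (SE, limma, adjusted p = 0.0708). Before subtraction the difference was 0.79 ± 0.17. The remainder did not pass the threshold, and the part of the guests in the Gas5 call was not tested. Between FLAG and WT the Gas5 remainder differed by 0.03 ± 0.16 over all libraries.

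**Figure D4:**
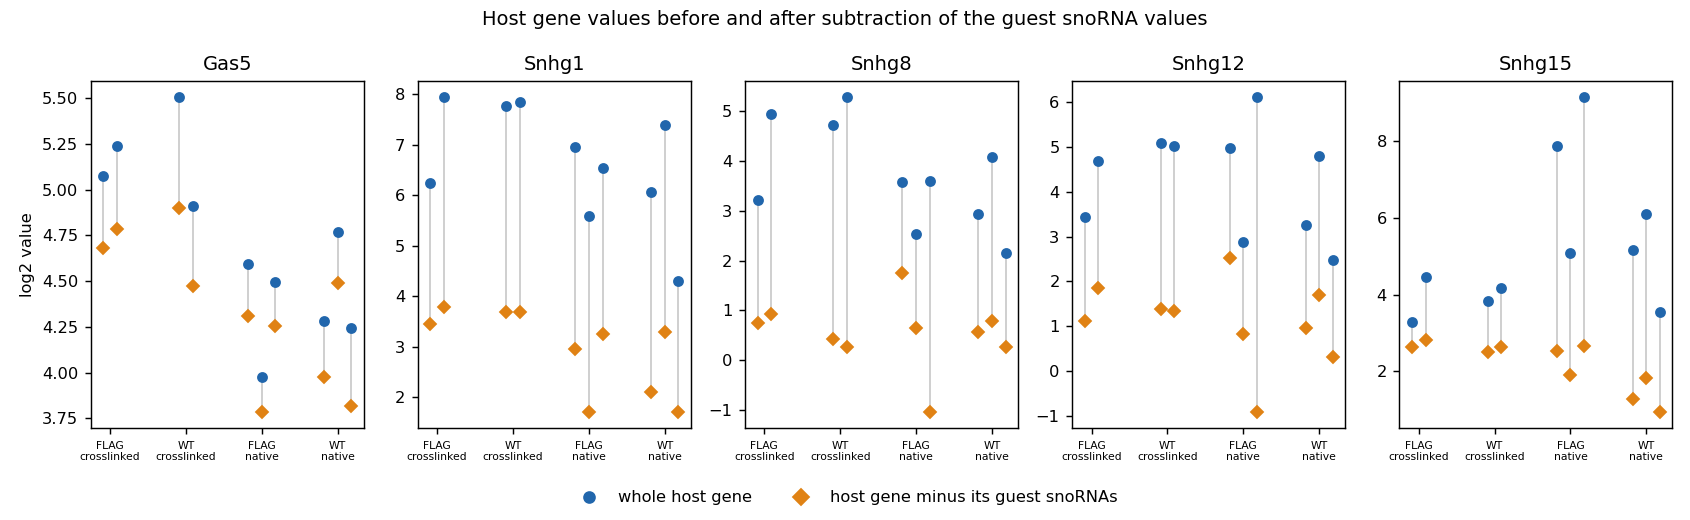
Log2 value (vertical axis, own scale per panel) of 5 host genes in each library before (blue circles) and after (orange diamonds) subtraction of the measured guest snoRNAs, with libraries of a group in the order of their replicate numbers. In Snhg15 the native libraries reach 9.15 before subtraction and 2.65 after it.

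Other host genes of a list give the wider view. Of 15 further noncoding hosts listed, 11 had a value (Snhg4, Snhg5, Snhg7, Snhg9, Snhg10, Snhg14, Snhg17, Snhg20, Zfas1, Dancr in 2 rows, and Epb41l4aos), and none was called in any comparison of the main design. All 12 rows had a negative difference between FLAG and WT when crosslinked (median −0.68), where 46.3% of all genes had a positive one. When native 10 had a positive one (median 0.55), as had 47.4% of all genes. The rows share these libraries and are not independent. Native values were largest for Snhg9 (2.16 ± 0.97), Snhg10 (2.12 ± 1.00) and Snhg4 (1.90 ± 0.87, SE, limma, adjusted p = 0.303, 0.318 and 0.312). Between protocols Snhg7 (−2.55), Snhg9 (−2.59) and Snhg10 (−2.43) had negative differences that did not pass (limma, adjusted p = 0.0547, 0.123 and 0.111), although Snhg7 and Snhg10 were called lower with cultures as a random block (adjusted p = 0.022 and 0.0491), as were 4.86% of all genes, and 1 row of Dancr higher with the culture block (1.46 ± 0.27, SE, limma, adjusted p = 0.0463). The protein-coding hosts, chiefly ribosomal proteins and translation factors with snoRNAs in their introns, had a median difference of 0.34 between FLAG and WT over all libraries, from −0.68 (Rps3) to 0.88 (Tpt1), and none of the 30 was called. Between protocols 8 of the 30 were called, beside 4.11% of all genes, all 8 lower when crosslinked as 2.94% of all genes were, and thus opposite to Gas5. Among them were the ribosomal protein genes Rpl4 (−0.82), Rpl12 (−1.11) and Rpl23a (−1.38), the translation factors Eef1b2 (−0.95) and Eif4a1 (−3.50) and the chaperone Hspa8 (−1.03). With the culture block 6 were called lower, without Rpl4 and Hspa8 (limma, adjusted p = 0.0756 and 0.0992), where 2.36% of all genes were, and with the random block 12 lower and 3 higher, where 4.86% and 2.3% of all genes were.

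The proteins that build snoRNPs and the factors of nonsense-mediated decay, which act on guests and on spliced hosts, were not called between FLAG and WT. The 18 snoRNP genes had a median difference of −0.01 over all libraries and the 14 decay genes 0.05. Between protocols 2 H/ACA core proteins were called lower when crosslinked, Nop10 (−2.16 ± 0.41) and Nhp2 (−0.91 ± 0.19, SE, limma, adjusted p = 0.0151 and 0.0210), beside the 2.94% of all genes called lower. The other H/ACA core proteins, Dkc1 (−0.13) and Gar1 (0.40), were not called. The 117 snoRNA genes outside the 8 hosts had median values of 1.25 to 2.59 in FLAG native, 1.18 to 2.31 in WT native, 1.62 to 2.82 in FLAG crosslinked and 2.93 to 3.14 in WT crosslinked libraries.

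The genes whose values over the 10 libraries were most like the mean profile of the 8 hosts, each centred on its own mean, were Rpsa (r = 0.974), Gmppb (0.960), Qars (0.959), Gm26205 (0.952) and Gm26675 (0.921). Rpsa holds 3 annotated snoRNA genes in its span and Gm26205 is itself a snoRNA inside Rpl6. No snoRNA gene was annotated inside Gmppb, Qars or Gm26675.

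The MEX-3 recognition element, the sequence pattern bound by MEX-3 proteins, was searched on the transcript strand. Other genes were searched in their longest annotated transcript of any exon number. For the 8 hosts the longest annotated transcript with 2 or more exons was used. For Gas5, Snhg1, Snhg12 and Snhg15 that transcript retains introns and contains guests. Its form in the methods of the study matched all 8 hosts, against 90.1% of all genes, with 2.62 matches per kb against 2.07. Matches ran from 1 in Snhg6 (816 nt) to 19 of all 40 in Snhg11 (5864 nt). In Gas5 3 of the 6 and in Snhg15 1 of the 2 lay inside guests. In the transcript with the most exons, an alternative added after the values were seen, 4 of the 8 hosts had a match (Snhg1, Snhg3, Snhg6 and Snhg11) and Gas5 had none, with 1.64 matches per kb. Another form, which differs in its last letters, matched 6 of 8 hosts, all but Snhg6 and Snhg8, against 90.7% of all genes. Among the guests shown above the first form matched Gm22357 and Snora9 only. A match of letters is a description of the sequence.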

How the data were processed

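RIP-seq was measured in 10 libraries, grouped by the genotype and protocol in their labels, and none was left out. According to the methods and processing notes, the authors trimmed reads with Cutadapt and Trimmomatic, mapped them to GRCm38 with HISAT2 and counted them per gene with featureCounts. The authors deposited log2 normalized values, which were used as they are. The methods and the processing notes name different tools for normalization, and the libraries are nearly equal in their distribution of values, as quantile normalization would make them. Counts and depth could not be recovered, and the counting settings for introns and strand are not given in the sources used here.

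FLAG and WT were compared with limma 3.58.1 (R 4.3.3; lmFit, eBayes with trend) within each protocol and over all libraries with protocol as covariate, crosslinked and native libraries with genotype as covariate, and the difference between protocols as an interaction. Deviations from the group means of same-numbered libraries of a genotype correlated across protocols at 0.178 and 0.154 in FLAG and 0.300 and 0.388 in WT, and the methods describe both precipitations side by side while treating them as independent, so the number was taken to mark a culture across protocols (FLAG and WT share only a number). The fits were checked beforehand on made-up values for all 15899 genes with 200 changed genes. All 8 members, and listed genes by counts and range, are named, and other genes were chosen after their values were seen. Some called genes of the lists are not reported here by name. The members and lists were chosen with earlier results of these data known.

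Guest positions and transcripts came from GENCODE M21 and families from RefSeq, where 15864 genes of the table were found in GENCODE, 14849 of them with the same start and end, as had 7 of the 8 members (not Snhg12). All 30 guest sequences read from the genome equalled the GENCODE transcripts, 2 guests being listed in duplicate. Python 3.11.15, pandas 2.3.3, biopython 1.88 and matplotlib 3.10.9 were used. Alternatives were pseudocounts of 0.25, 1 and 8, a minimum mean of 10, equal medians, quantile normalization, array weights, robust moderation, 1 fit of 4 groups, a replicate block, each library left out and, added after the values were seen, both libraries with ties left out, guest values subtracted, a crossed pairing, a block by culture and the transcript with the most exons.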

Additional observations from a re-analysis of the deposited data

How the results depend on the processing

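No host was called between FLAG and WT in crosslinked libraries or over all libraries under any alternative. In native libraries 3 of the 8, Snhg3, Snhg12 and Snhg15, were called higher with array weights, which in the native fit gave FLAG native replicate 2 the lowest weight (0.292), and when that library was left out, and leaving out other libraries gave 0. Between protocols the 1 call (Gas5) became 5 with array weights, 0 with the replicate block, 0 with the culture block, 1 with it as a random effect and 0 with guest values subtracted, and 0 to 1 with a library left out. With guests subtracted the protocol difference of Snhg15 turned to 0.80. Of 791 differences of hosts under all alternatives, 63 had the opposite sign. The cause was not tested.

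Counts over all genes moved more. Native calls (0 higher, 17 lower) became 1656 and 1921 with array weights, 2 higher with robust moderation, 1 higher with the replicate block, 1 and 3 in 1 fit of 4 groups, 7 lower with the minimum mean and 1 and 8 without FLAG native replicates 1 and 3 (only FLAG native replicate 2 remained), and with a library left out ranged from 0 to 1450 higher and from 0 to 1710 lower, both highest without FLAG native replicate 2. Calls over all libraries (42 higher, 37 lower) became 1105 and 964 with array weights, 14 and 20 with the replicate block, 7 and 8 with cultures as a random block, 8 and 10 without both FLAG native libraries, 10 higher with a pseudocount of 8 and 13 higher with the minimum mean, and ranged from 4 to 516 higher and from 7 to 219 lower with a library left out. Protocol calls (186 higher, 467 lower) became 1034 and 994 with array weights, 36 and 269 with the replicate block, 70 and 375 with the culture block, 365 and 773 with cultures as a random block, 51 and 146 with a pseudocount of 8 and 83 and 126 with the minimum mean, and ranged from 24 to 312 higher and from 212 to 768 lower with a library left out. Leaving out a library gave 0 to 4 higher calls in crosslinked libraries and 0 to 1 lower calls for the difference between protocols.

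The replicate numbers were not taken as pairs of FLAG and WT libraries: deviations of same-numbered FLAG and WT libraries correlated at −0.149, −0.430 and −0.167 when native and −0.274 when crosslinked, and no native library correlated best with its own number. Libraries of 1 genotype and number under both protocols were taken as 1 culture. Eif2s3y contradicts this for at least 1 WT number (−4.66 in 1 WT crosslinked library, 4.01 to 4.23 in WT native libraries). The block by culture changed no call of the 8 hosts other than that of Gas5, and as a random effect none. A crossed pairing of the crosslinked libraries as a block gave 0 calls. The search for the recognition element changed from 8 to 6 hosts with its other form to 4 in the transcript with the most exons, and stayed at 8 in merged exons. Unknown depth, 2 or 3 libraries a group and values that mix exons, introns and guests limit what can be said of the hosts.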
